A study of Mus musculus with 6 samples.

Results

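The proteasome subunit genes were followed in quadriceps muscle of mice with and without Pofut1, the gene for protein O-fucosyltransferase 1. The members were all genes whose single symbol in the platform annotation is Psma, Psmb, Psmc or Psmd followed by a number. There were 39 such genes among the 18194 genes of the arrays, each read at its brightest probe set. They fell into 7 alpha ring and 7 constitutive beta ring genes of the 20S core, 3 immune beta genes, 2 tissue-restricted core genes, 6 ATPase and 11 non-ATPase genes of the 19S particle, and 3 assembly chaperones that carry Psmd names. The knockout group held 3 quadriceps samples with a skeletal α actin cre transgene and Pofut1 flox/flox alleles. The control group held 3 quadriceps samples that carried the same transgene and wild-type Pofut1. All mice were of the C57/Bl6 strain and 2 months old. The skeletal alpha-actin promoter is active in muscle fibres, so the design deletes Pofut1 there and not in the vessel, immune and connective tissue cells of the same muscle. Nothing in the labels states that replicates are different mice, and the p-values measure only the spread between these samples.

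The proteasome is the cell's main machine for degrading ubiquitin-tagged proteins. Its 20S core is a barrel of stacked alpha and beta rings with the catalytic sites inside the beta rings, and the 19S particle at its end binds ubiquitin chains, removes them and unfolds the substrate with a ring of ATPases. In skeletal muscle this system turns over contractile proteins, and its genes are commonly followed in muscle wasting. Cells exposed to interferon replace the catalytic beta subunits with the immune forms Psmb8, Psmb9 and Psmb10, which favour peptides for antigen presentation.

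The array labelled control replicate 3 stood apart over the whole genome. Its log2 values correlated with those of the other arrays at 0.940 to 0.945, against 0.980 to 0.991 among the rest. The 3' over 5' intensity ratio of Gapdh, a measure of RNA integrity and cDNA length, was 10.5 on this array, 3.70 on knockout replicate 2 and 1.73 to 1.97 on the other 4. Sex-linked transcripts showed a female pattern in knockout replicate 2 and control replicate 2 and a male pattern in the other 4, so each group held samples of at least 2 mice. Pofut1 read 220.1, 231.1 and 194.3 in the knockout samples and 301.4, 379.8 and 90.6 in the controls, so the array labelled control replicate 3 ran against its label. The log2 fold change of Pofut1 was -0.023 ± 0.52 with this array and -0.66 ± 0.17 without it. The sources used here do not say whether the probe set falls within the deleted exons. All 10 skeletal muscle markers examined were above background, with summed intensities of 91570 to 102812 per array. Below, control replicate 3 means the array so labelled, and results are given with and without control replicate 3 where it moved them.

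No proteasome gene differed between knockout and control muscle after adjustment over all genes (limma, lowest adjusted p of a member 0.971). The same test called 0 of 18194 genes, a background of 0%. Of the 39 members, 24 had lower and 15 had higher values in the knockout, with a median log2 fold change of -0.040. Over all genes 53.7% were lower, with a median of -0.0086, and of the 910 genes at least as bright as the median 20S and 19S gene 41.0% were lower. At an unadjusted limma p under 0.05 there was 1 member, Psmd9, against 2.58% of all genes. It was on the lower side, which held 1.58% of all genes, and 0 members were on the higher side, which held 1%. Ordinary t statistics of the same model placed 2 members under that p, and over all genes limma gave 469 and ordinary t statistics 615. The data also bounded the size of a difference. For 36 of the 39 members the 95% confidence interval excluded a 2-fold change in either direction, and the exceptions were Psmb1, Psmd9 and Psmd10. The same held for 15205 of the 18194 genes and for 872 of the 910 bright genes, so it is not particular to the members. The 36 include Psma8 and Psmb11, which were below background, so their narrow intervals bound little.

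**Figure D1:**
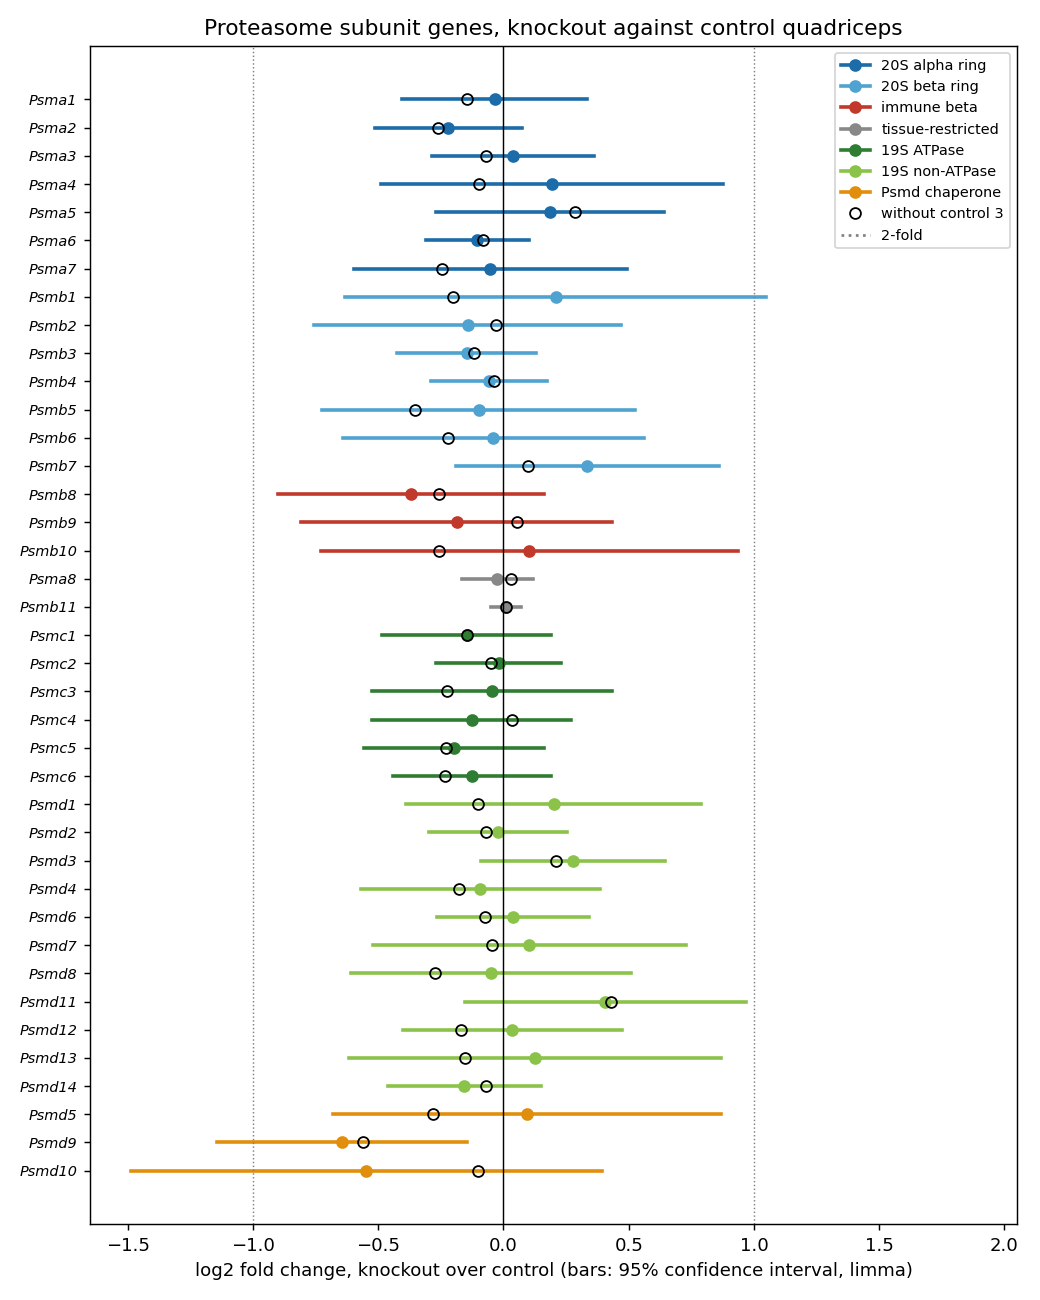
Log2 fold change of each of the 39 members, knockout over control, with the 95% confidence interval of the limma fit over 6 arrays (filled points and bars, coloured by subunit class) and the value without control replicate 3 (open circles). The interval of Psmd9 lies wholly below 0, at -1.14 to -0.15, the intervals of the other 38 members span 0, and open circles lie left of filled ones for most 20S and 19S genes.

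The constitutive core and regulatory particle genes were bright in this tissue. The 31 genes of both structures had mean intensities of 212 to 4569, with a median of 1774, which lay at the 95th percentile of the probe set intensities of all genes. The background level of the arrays, taken as the 95th percentile of 39 genes restricted to other tissues, was an intensity of 62.0. The core genes Psma8, which replaces an alpha subunit in male germ cells, and Psmb11, which belongs to the thymus, were at 38.3 to 45.5 on every array and so below background. The other 37 members had means above it.

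Promoter sequences were examined for what the members share beyond their names. RefSeq promoter windows of assembly GRCm38.p6, from 250 bases before to 50 bases after the start site, were at hand for 32 members and held 34 windows. The letters CCGGAAG, the core bound by ETS family factors, occurred on either strand in 32.4% of the member windows. The share was 8.86% of all 32851 windows, and 16.9% of the 11630 windows of genes above background on these arrays. All 11 windows with it belonged to 10 genes of the 20S and 19S particles. Of these genes Psma6 is a core gene and the others belong to the 19S particle. The surroundings of 4 matches, those of 1 ATPase and 3 non-ATPase genes, are shown as examples, with the match in capitals. Matches of Psmd11 and Psmc2 that lie 4 and 17 bases before the start site are not shown. Matches of Psmc2, Psmc6, Psmd4 and Psma6 that lie 77, 93, 118 and 125 bases before it are not shown either. Psmd13 has no match that lies wholly before the start site. The 4 matches shown lie 10 to 38 bases before the start site. They lie at chr12:100110149-100110201 (Psmc1, plus strand), chr16:20651601-20651651 (Psmd2, plus strand), chr14:14120958-14121015 (Psmd6, minus strand) and chr11:107479486-107479527 (Psmd12, plus strand). CTTCCGG is the same motif read from the opposite strand.
Psmc1: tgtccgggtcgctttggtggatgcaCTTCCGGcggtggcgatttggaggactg
Psmd2: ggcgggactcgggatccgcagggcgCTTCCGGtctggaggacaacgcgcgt
Psmd6: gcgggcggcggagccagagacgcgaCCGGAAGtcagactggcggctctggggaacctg
Psmd12: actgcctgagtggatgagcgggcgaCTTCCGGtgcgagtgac

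The antioxidant response element, TGACNNNGC, is the sequence bound by the Nfe2l1 and Nfe2l2 factors, of which Nfe2l1 is known to raise proteasome genes together when proteasomes are inhibited. It was found in 14.7% of member windows, against 12.4% of all windows and 14.4% of those of genes above background. The 5 members with it were Psmb5, Psmb6, Psmc6, Psmd12 and Psmd9. Of these, 3 are shown because they hold the catalytic genes Psmb5 and Psmb6 and the member with the largest difference, Psmd9, described below. Their positions are chr14:54618008-54618067 (Psmb5, minus strand), chr11:70525323-70525356 (Psmb6, plus strand) and chr5:123228134-123228189 (Psmd9, plus strand). The match in the Psmd9 window overlaps a GC box on the other strand.
Psmb5: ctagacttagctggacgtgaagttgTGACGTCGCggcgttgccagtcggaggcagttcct
Psmb6: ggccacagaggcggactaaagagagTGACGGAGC
Psmd9: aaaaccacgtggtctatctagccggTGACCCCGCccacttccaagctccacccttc

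The other motifs had shares near those of the arrays' expressed genes or few matches. GGGCGG, the GC box, was in 55.9% of member windows and 61.8% of windows of genes above background, and CCAAT was in 38.2% and 37.3%. TATAAA was in 11.8% and 7.59%, the E box CACGTG in 8.82% and 9.91%, and the cyclic AMP element TGACGTCA in 0% and 2.86%. The core of the interferon-stimulated response element was in 8.82% and 2.91%, in the windows of Psmb3, Psmd4 and Psmd9, a count of 3 windows. None of the 3 immune genes had it within these windows. In the RefSeq gene order Psmb9, Tap1, Psmb8 and Tap2 follow each other on chromosome 17, so the immune genes alternate with the genes of the peptide transporter. Psmb5 and Psmb11 are direct neighbours on chromosome 14.

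No single gene of the alpha ring, which gates entry to the core, passed the test, and the ring as a whole was not tested. Of the ring's 7 genes 4 had lower and 3 higher values in the knockout, with log2 fold changes of -0.22 to 0.20 and a median of -0.035. The median was -0.097, with 6 of 7 lower, without control replicate 3. Psma2 had the lowest value of the ring. Its intensities were 1375, 1229 and 1448 in the knockout and 1583, 1650 and 1481 in the controls, each in the order of replicates 1, 2 and 3, as everywhere below. All 3 knockout values lay below all 3 control values, by a narrow margin. The log2 fold change was -0.22 ± 0.12 (standard error, SE; limma adjusted p = 0.971), with a 95% interval of -0.51 to 0.074. Psma4 had the highest, with 763, 541 and 776 in the knockout and 692, 773 and 399 in the controls. Its groups overlapped, also among the arrays with low 3' over 5' ratios, and its log2 fold change was 0.20 ± 0.29 with all arrays and -0.097 without control replicate 3.

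Psma6 varied least within the ring. It read 4454, 4317 and 4449 in the knockout and 4756, 4579 and 4883 in the controls. Its groups also did not overlap, with a log2 fold change of -0.10 ± 0.087 (limma adjusted p = 0.971) and a 95% interval of -0.31 to 0.10. The next brightest probe set of Psma6 did overlap between groups. It read 2657, 2163 and 2713 in the knockout and 2881, 2799 and 2180 in the controls (-0.058 ± 0.16). Groups without overlap and with lower knockout values were found for 5 members (Psma2, Psma6, Psmb8, Psmd14 and Psmd9) and with higher values for 1 (Psmd3), which are named because of those values. Over all genes such separation occurred for 5.68% on the lower side and 3.33% on the higher side. An exact permutation test of 3 against 3 arrays cannot give a two-sided p under 0.1. Groups without overlap give that value by construction, so the test adds nothing for these 6 members.

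**Figure D2:**
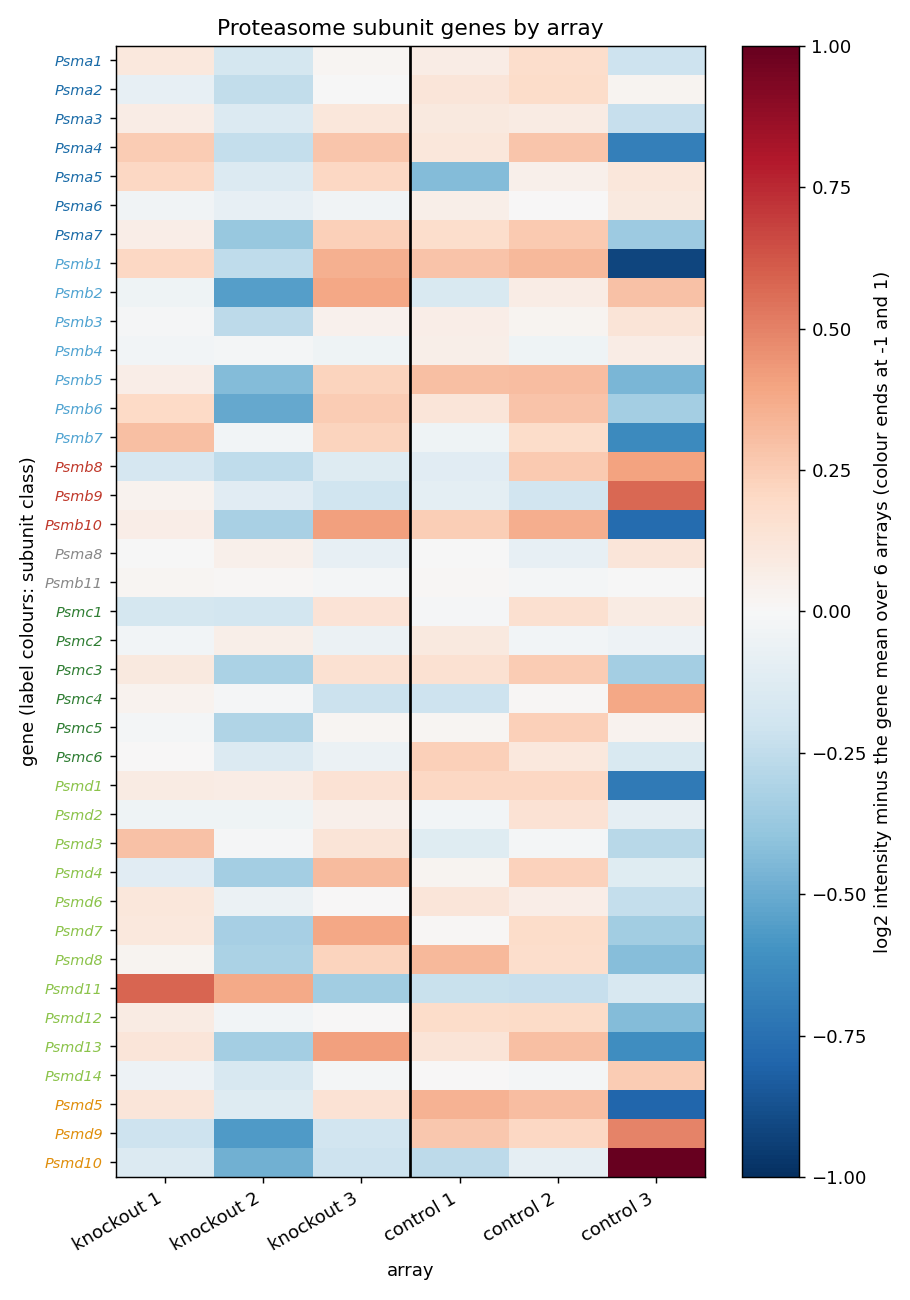
Log2 intensity of each member on each array minus its mean over the 6 arrays, with genes in rows by class and arrays in columns (red above, blue below the mean, colours ending at -1 and 1). Blue runs down knockout 2 and much of control 3, and Psmd10 in control 3 is the deepest red.

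The constitutive beta ring holds the 3 catalytic subunits Psmb5, Psmb6 and Psmb7 and 4 structural ones. Of the 7 genes 5 were lower and 2 higher in the knockout, with a median log2 fold change of -0.058 and a range of -0.15 to 0.33. The median was -0.12, again with 6 of 7 lower, without control replicate 3. Psmb3, a structural subunit, had the lowest value of the ring, with 3220, 2707 and 3341 in the knockout and 3389, 3291 and 3545 in the controls. Its groups overlapped, and the log2 fold change was -0.15 ± 0.12 (adjusted p = 0.971 in limma). Psmb1 showed most clearly how 1 array widened an interval. It read 1555, 1131 and 1727 in the knockout, 1641 and 1687 in control replicates 1 and 2, and 712 in control replicate 3. The log2 fold change was 0.21 ± 0.36 over all arrays and -0.20 without that array.

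The catalytic genes had no common direction. Psmb5, the chymotrypsin-like subunit that most proteasome inhibitor drugs target, read 1857, 1311 and 2069 in the knockout and 2185, 2192 and 1291 in the controls. Its groups overlapped only through control replicate 3. The log2 fold change was -0.098 ± 0.26 over 6 arrays and -0.35 ± 0.20 without that array (limma adjusted p = 0.802). Without knockout replicate 2 instead it was 0.095. Psmb6, the caspase-like subunit, read 2309, 1411 and 2402 in the knockout and 2184, 2452 and 1588 in the controls, a near-complete overlap. Its log2 fold change was -0.040 ± 0.25 with all arrays and -0.22 without control replicate 3. Psmb7, the trypsin-like subunit, was the highest of the ring with 2694, 2145 and 2556 against 2117, 2478 and 1406. Its log2 fold change was 0.33 ± 0.22 with all arrays and 0.099 without control replicate 3. The 95% intervals were -0.72 to 0.53 for Psmb5, -0.64 to 0.56 for Psmb6 and -0.19 to 0.86 for Psmb7, so differences within these bounds were not detectable with 3 arrays a group.

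Of the 3 immune subunits none passed the test. Psmb8, the immune counterpart of Psmb5, read 131, 124 and 135 in the knockout and 136, 176 and 195 in the controls. All knockout values lay below all control values, with control replicate 1 next to the knockout range. The log2 fold change was -0.37 ± 0.22 (limma adjusted p = 0.971), or 1.29-fold lower, with a 95% interval of -0.90 to 0.16. Psmb8 was highest on control replicate 3. Without that array the value shrank to -0.26, and the groups still did not overlap. With knockout replicate 2 left out as well it was -0.22, and with array weights over all arrays it was -0.20. The second probe set of Psmb8 read 60.5 to 62.7 in the knockout and 61.8 to 78.8 in the controls, at the background level.

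Psmb9, the counterpart of Psmb6, read 112, 100.5 and 94.8 in the knockout and 102, 95.3 and 162 in the controls. Only control replicate 3 stood out, and the log2 fold change of -0.19 ± 0.26 became 0.053 without it. Psmb10, the counterpart of Psmb7, read 335, 254 and 423 in the knockout and 378, 411 and 187 in the controls. Here control replicate 3 was the lowest array, and the log2 fold change of 0.10 ± 0.35 became -0.26 without it. On that array the 3 immune genes lay 0.33, 0.72 and -1.07 log2 units (Psmb8, Psmb9 and Psmb10) from the mean of control replicates 1 and 2.

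**Figure D3:**
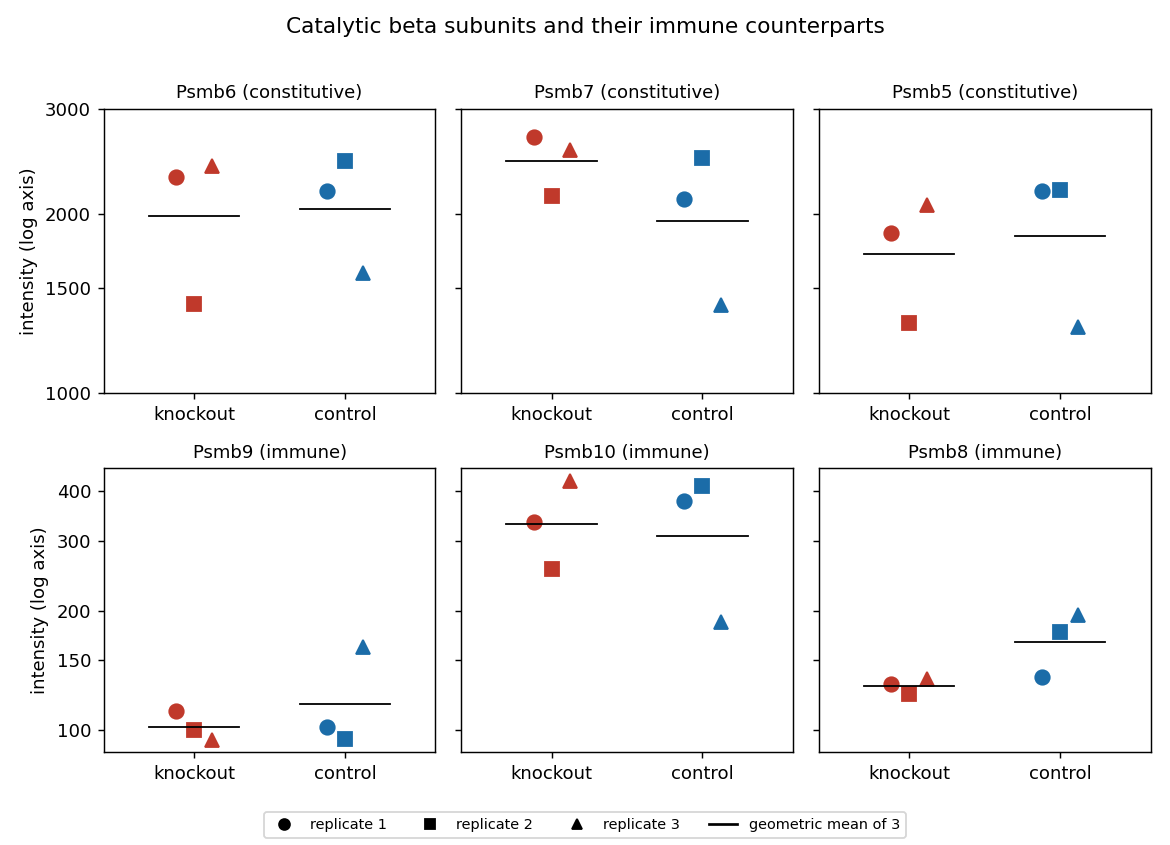
Intensity on a log axis of the 3 catalytic subunit genes (top) and of the immune gene that replaces each (bottom, same column), in 3 knockout (red) and 3 control (blue) samples, with symbols for the replicate number and a line at the geometric mean. Psmb8 alone has no overlap between groups, and levels of different genes are not comparable because they come from different probe sets.

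Immune subunits are made mainly by immune cells and by cells exposed to interferon, so the markers of both are given beside them. In bulk muscle fewer cells of a type and less RNA per cell cannot be told apart. Of 18 macrophage markers 16 were above background and 14 had lower values in the knockout, with a median log2 fold change of -0.10. Leaving out control replicate 3 gave a median of -0.35, with 16 of 18 lower. Their summed intensity was 7945 to 13123 in the knockout and 9430 to 15722 in the controls. Folr2, a folate receptor of resident macrophages, read 263, 199 and 260 against 503, 296 and 343 (log2 fold change -0.63 ± 0.25, limma adjusted p = 0.971, groups not overlapping). Ms4a7, a macrophage membrane protein, had -1.14 ± 0.46. These were the 2 macrophage markers with an unadjusted p under 0.05. Of 10 lymphocyte markers Ptprc alone was above background, with Cd79a at -0.24 ± 0.13 and Cd2 at 0.26 ± 0.19 the nearest to the threshold, and their sums were 580 to 981 in the knockout and 598 to 799 in the controls. Of 6 class II antigen presentation genes 3 were higher and 3 lower, with H2-Eb1 at -0.16 ± 0.18 and Ctss at -0.22 ± 0.41. The median of these 6 genes moved from -0.0038 to -0.13 without control replicate 3, with 1 higher and 5 lower. The part of these cells in the values of Psmb8 was not tested.

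The interferon and peptide presentation genes that are made together with the immune subunits had medians near that of all genes or below it over 6 arrays. Of 10 class I presentation genes, 5 were higher and 5 lower, with a median of 0.025 that became -0.0088 without control replicate 3. H2-K1 and H2-D1, class I heavy chains, had 0.22 ± 0.20 and 0.27 ± 0.25, and 0.035 and 0.0024 without that array. Of 10 interferon gamma response genes 7 were lower, with a median of -0.15, and 0 had an unadjusted p under 0.05. Gbp2, an interferon-induced GTPase, had -0.55 ± 0.37 (-0.16 without control replicate 3) and Iigp1, another, -0.73 ± 0.61. Without control replicate 3 all 10 were lower, and Igtp (-0.75), Iigp1 (-1.37) and Cxcl10 (-0.49, below background) had an unadjusted p under 0.05, which 3.95% of all genes reached on the lower side.

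All 6 ATPases of the 19S base, which unfold substrates and open the core, had values below control, and 0 of them passed the test. Their log2 fold changes ran from -0.20 to -0.019 with a median of -0.13, and 0 had an unadjusted p under 0.05. Psmc5 was lowest, with 870, 716 and 894 in the knockout and 893, 1042 and 906 in the controls. Its groups overlapped by a single pair of values, knockout replicate 3 and control replicate 1, that were nearly equal (-0.20 ± 0.15, limma adjusted p = 0.971). Psmc2 was nearest to 0, with 2396, 2549 and 2352 against 2625, 2406 and 2366 (-0.019 ± 0.11). Psmc1, Psmc3, Psmc4 and Psmc6 had -0.15, -0.046, -0.13 and -0.13. Without control replicate 3, Psmc4 was above 0 at 0.033, and the other 5 ATPases ran from -0.23 (Psmc6) to -0.048 (Psmc2).

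The non-ATPase subunits of the 19S particle, which form its scaffold, its ubiquitin receptors and its deubiquitinase, were spread on both sides of 0. Of 11 genes 7 were higher and 4 lower in the knockout, with a median log2 fold change of 0.038. The sign of the median turned without control replicate 3, to -0.073, with 2 higher and 9 lower. Psmd14, the deubiquitinase that removes ubiquitin chains from substrates, was lowest, with 1507, 1391 and 1533.0 in the knockout and 1560, 1533.3 and 1859 in the controls. The groups touched, since knockout replicate 3 and control replicate 2 were equal to within an intensity of 1, and the log2 fold change was -0.16 ± 0.13 (adjusted p = 0.971 in limma) with all arrays and -0.068 without control replicate 3. Psmd3, a scaffold subunit of the lid, was the one member with all knockout values above all controls, with 818, 661 and 730 against 611, 658 and 550. The margin was again narrow, and the log2 fold change was 0.28 ± 0.16 (limma adjusted p = 0.971).

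Psmd11, a lid subunit whose abundance is known to limit proteasome assembly in stem cells, had the highest value of the family. Its brightest probe set read 2661, 2314 and 1398 in the knockout and 1526, 1519 and 1595 in the controls. Knockout replicates 1 and 2 were high, while knockout replicate 3 lay below every control. The log2 fold change was 0.41 ± 0.24 (limma adjusted p = 0.971). Without knockout replicate 3 it was 0.68, with an unadjusted p under 0.05 that did not pass adjustment (0.9996). The next brightest probe set of the gene did not show this, with 1562, 1696 and 1412 in the knockout and 1652, 1605 and 2047 in the controls (-0.18 ± 0.15). Over its 5 probe sets above background the log2 fold changes ran from -0.18 to 0.41.

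The member farthest from 0 was Psmd9, which encodes a chaperone that assists assembly of the 19S base and is not part of the finished particle. It read 172, 135 and 174 in the knockout and 239, 230 and 280 in the controls. Every knockout value lay clearly below every control. Knockout samples were 1.56-fold lower in geometric mean (log2 fold change -0.65 ± 0.21), with a 95% interval of -1.14 to -0.15 and a limma adjusted p of 0.971. Without control replicate 3 it was -0.56, without knockout replicate 2 it was -0.53, and leaving out the pair of high-ratio arrays it was -0.44. Its unadjusted limma p was under 0.05 in 17 of 19 alternative fits, the exceptions being the fit without knockout replicate 2 and the fit to the mean of its probe sets. These fits reuse the same arrays, and Psmd9 was named for its p in the main fit, so this count is no separate support. The other 2 probe sets of Psmd9 read 52.1 to 83.8 over the arrays, near background, and had log2 fold changes of -0.14 ± 0.20 and 0.018 ± 0.18. The difference rested on 1 probe set, and over the mean of its probe sets the value was -0.26.

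The remaining chaperones with Psmd names depended on control replicate 3. Psmd5 read 407, 341 and 414 in the knockout, 476 and 462 in control replicates 1 and 2, and 215 in control replicate 3. Its log2 fold change was 0.094 ± 0.33 with that array and -0.28 ± 0.14 without it (limma adjusted p = 0.802). Psmd10, also known as the oncoprotein gankyrin, read 121, 94.8 and 115 in the knockout and 111, 125 and 298 in the controls. Its value of -0.55 ± 0.40 came from the single array at 298, and without it the value was -0.10.

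**Figure D4:**
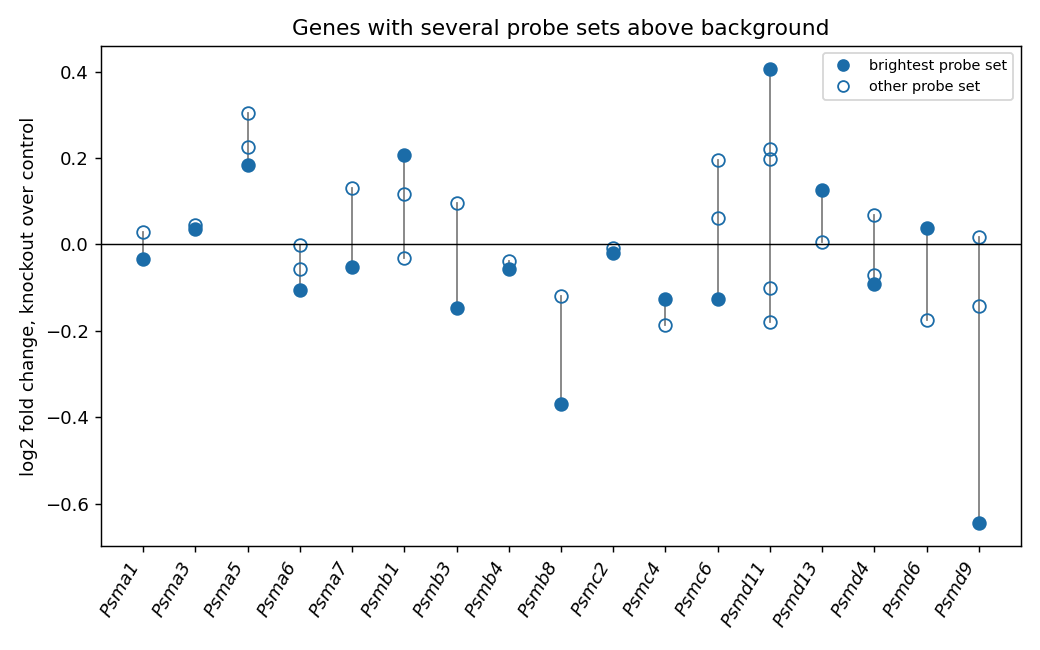
Log2 fold change, knockout over control, of every probe set above background for the 17 members with at least 2 such probe sets (filled, the brightest probe set of the gene; open, the others). The sign was shared by all probe sets in 8 of the 17 genes, and the widest ranges are those of Psmd9 and Psmd11.

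The 78 probe sets of the family allowed a check on single genes. Above background there were 63, of which 28 were higher and 35 lower in the knockout, with a median of -0.023, and 1 had an unadjusted limma p under 0.05. Probe sets of a gene could lie apart in control replicate 3, as 3 genes chosen after their values were seen show. For Psmb3 the brighter probe set lay 0.086 above the mean of control replicates 1 and 2 on that array, while the other lay at -1.78. For Psmd6, a lid subunit, the probe sets lay at -0.33 and 0.64. For Psma7, an alpha subunit, both were low, at -0.58 and -1.51. The chosen probe sets of Psma6, Psmb4 and Psmc2 are of the platform's x type, which can bind related transcripts, so their values are less specific.

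On single arrays many members were low together. Knockout replicate 2 was the lowest of the 3 knockout arrays for 31 of the 39 members (79.5%), against 33.3% of all genes and 48.2% of the 910 bright genes. Among the 14 constitutive core genes it was lowest for 13, the exception being Psmb4. The shift of this array against knockout replicates 1 and 3 had a median of -0.32 log2 units over the core genes and -0.13 over the 17 genes of the 19S particle. It was -0.038 over the bright genes. Control replicate 3 was the lowest of all 6 arrays for 18 members (46.2%), against 32.1% of all genes, 46.5% of genes above background and 40.4% of the bright genes. These are the arrays with the high 3' over 5' ratios, and the part of RNA integrity in these shifts was not tested.

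The shifts of the 2 arrays were alike for part of the family. Among the 37 members above background, 23 (62.2%) were low on both arrays, against 38.9% of genes above background and 43.7% of the bright genes, and the shifts correlated with a Pearson r of 0.39 and a Spearman rho of 0.41. This correlation runs across genes that share the same arrays and is a description only. Over the 910 bright genes r was 0.52, and over all genes above background it was 0.20. The members more than 0.5 log2 units low on both were Psmb1, Psmb10, Psmd13, Psma4, Psmb5, Psmb6 and Psma7.

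**Figure D5:**
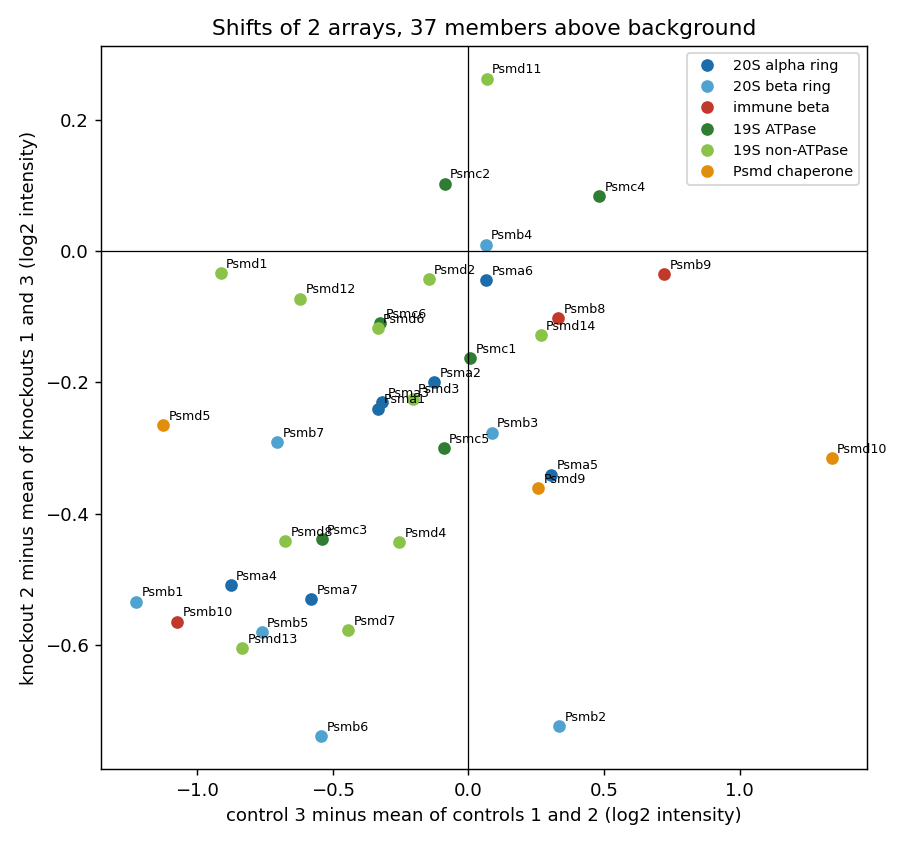
Shift of control replicate 3 against the mean of control replicates 1 and 2 (horizontal) and of knockout replicate 2 against the mean of knockout replicates 1 and 3 (vertical), in log2 intensity, for the 37 members above background. Of these, 23 lie below 0 on both axes, and Psmd10 lies far to the right at 1.34.

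Without control replicate 3 more members had lower values in the knockout. Of 39 members 31 (79.5%) were then lower, with a median log2 fold change of -0.10, against 52.0% of all genes, 63.4% of genes above background and 53.7% of the 910 bright genes. The core genes had 12 of 14 lower and the 19S genes 14 of 17, with medians of -0.11 and -0.10. Groups did not overlap on the lower side for 11 members (28.2%) and on the higher side for 1 (2.56%), where all genes gave 14.2% and 10.3%. Genes above background gave 19.5% and 8.06%, and the bright genes 20.2% and 21.6%. The values of 0 members passed adjustment (lowest adjusted p 0.802), and Psmd9 alone had an unadjusted p under 0.05, which 3.95% of all genes reached on the lower and 2.04% on the higher side. These values also depended on knockout replicate 2. Without either of the 2 arrays, 25 members were lower and 14 higher, and the core and 19S medians were -0.024 and -0.057, whereas without knockout replicate 2 alone they were 0.11 and 0.060.

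Genes that build, activate and supply the proteasome were measured beside the subunits. Of 9 assembly and accessory genes 7 were lower in the knockout, with a median of -0.067, and 0 had an unadjusted p under 0.05. Uchl5, a deubiquitinase of the 19S particle, had 0.15 ± 0.19, and Psmg3, a core assembly chaperone, had 0.38 ± 0.53. Without control replicate 3 the median was -0.19 with 8 of 9 lower, and these genes had 0.0021 and -0.26. Of the 4 measured activators and inhibitors, Psme3, the nuclear PA28 gamma activator, read 467, 462 and 512 in the knockout and 604, 564 and 745 in the controls. The groups did not overlap (-0.40 ± 0.17, limma adjusted p = 0.971), and without control replicate 3 the value was -0.28. The other 3 were higher, with Psmf1, the proteasome inhibitor PI31, at 0.40 ± 0.29, and the median of the list was 0.24 with all arrays and -0.0050 without control replicate 3. Of 8 genes of ubiquitin supply and shuttling 6 were higher, with a median of 0.16 that became -0.027 without control replicate 3. Ubqln2, a shuttle that carries ubiquitylated proteins to the proteasome, had 0.27 ± 0.17, and Ufd1, which acts with the p97 segregase, had 0.23 ± 0.21, or 0.0098 without that array. Of 11 ubiquitin conjugation genes known from muscle 7 were higher, with a median of 0.11. Leaving out control replicate 3 gave a median of -0.059, with 4 higher and 7 lower. Trim63, the atrophy ligase MuRF1, had 0.24 ± 0.15, and Mul1, a mitochondrial ligase, had -0.57 ± 0.35, or -0.17 without that array.

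The Nfe2l1 and Nfe2l2 factors and their targets had a median of either sign, depending on control replicate 3. Nfe2l1 read 2397, 2033 and 2401 in the knockout and 1899, 2207 and 1766 in the controls, with overlap and a log2 fold change of 0.22 ± 0.14. Of the 11 measured genes 6 were higher, with a median of 0.019, and 0 had an unadjusted p under 0.05. Txnrd1, thioredoxin reductase, had -0.52 ± 0.28. Without control replicate 3, 8 of the 11 were lower, with a median of -0.18. Srxn1, sulfiredoxin, read 370, 190 and 370 in the knockout against 619 and 824 in control replicates 1 and 2, and 162 in control replicate 3. Its value without that array was -1.27. Hmox1, heme oxygenase, Gclm, of glutathione synthesis, and Mafg, a partner of both factors, had -1.58, -0.70 and -0.47. These 4 had an unadjusted limma p under 0.05 without control replicate 3, which 3.95% of all genes reached on the lower side. Their limma adjusted p was 0.802, and the lowest adjusted p of any gene without that array was 0.395.

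Markers of other cells and of the fibres were measured in the same samples. Of 9 endothelial markers 8 were higher in the knockout, and Cdh5, the endothelial cadherin, had 0.57 ± 0.19 (limma adjusted p = 0.971). Of 6 adipocyte markers 5 were higher, with Plin4 at -0.27 ± 0.17 and Retn at 0.35 ± 0.36. Their median was 0.33 with all arrays and 0.036 without control replicate 3, with 3 higher and 3 lower. Of 10 fibre markers 9 were higher, with a median of 0.10 and Tnnt3, fast troponin T, at 0.19 ± 0.080 (limma adjusted p = 0.971). The median of the fibre markers was 0.077 without control replicate 3, with 7 higher and 3 lower. Erythroid markers, 2 measured, included Alas2 at -0.27 ± 0.45 and Hba-a1 at 0.037 ± 0.032, the latter below background. Germ cell markers, 8 measured with 2 above background, included Dazl at -0.052 ± 0.043 and Sycp1 at -0.022 ± 0.027, both below it. The part of cell makeup in the proteasome values was not tested.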

How the data were processed

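Total RNA of 6 quadriceps samples was amplified, labelled with biotin and hybridised to 1 mouse array each, per the labels' protocols. The deposited values are probe set intensities on a linear scale. The authors used GCOS and RMA, per the submitters' processing notes, with versions not given in the sources used here. Whether values were scaled again after RMA is unknown, and RMA compresses differences of dim genes. Of 45101 probe sets, 34958 had 1 gene symbol in the platform annotation, 932 had several and 9211 were not listed. Each of 18194 genes was read at the single-symbol probe set with the highest mean over the 6 arrays.

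The log2 of each intensity, without a pseudocount, entered a linear model of genotype in limma 3.58.1 (R 4.3.3), whose eBayes step used the intensity trend. The two-sided p-values were adjusted by Benjamini and Hochberg's method across the 18194 genes, with a threshold of 0.05, and the number of arrays limits the precision. The fit was tested on simulated data. Members and gene lists were chosen with earlier results of these data known. The rule for named genes took the immune subunits and their partners, members with an unadjusted p under 0.05 with or without control replicate 3, and the extremes of each class. From each other list it took members with an unadjusted p under 0.05, or the 2 with the smallest p. Other genes named were chosen after their values were seen. Other settings tried were a block for replicate number, normalization, array weights, variance models, a pseudocount of 32, dim genes, choice of probe sets, the Gapdh ratio, sex and each array. Promoter windows came from RefSeq, GRCm38.p6.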

Additional observations from a re-analysis of the deposited data

How the results depend on the processing

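In all 20 alternative fits 0 members and 0 genes passed adjustment. The number of members with an unadjusted limma p under 0.05 was 1 over all arrays, 5 with array weights, 3 with eBayes without trend, 3 with the Gapdh ratio as a covariate and 0 with the mean of probe sets. Leaving out single arrays gave 0 to 2, with 0 without knockout replicate 2 and 2 without knockout replicate 3. For the array weight, variance model, Gapdh ratio and averaged probe set fits, the share of all genes under that p was not compared. Nor was it compared for the fits with a replicate block or without a single array, apart from control replicate 3. Whether those changes in count are particular to the members was therefore not tested. The medians of the core, 19S and immune genes stayed within 1 SD between arrays of the main value, at -0.11 to 0.11, -0.10 to 0.060 and -0.33 to -0.068. That SD includes the spread due to control replicate 3 and knockout replicate 2. The sign changed in 5 of the 20 alternatives for the core median, in 3 for the 19S median and in 0 for the immune median. With the replicate number as a block the core median was -0.046 and 1 member had an unadjusted p under 0.05. Deviations of same-numbered samples correlated at 0.19, -0.15 and -0.11, and those of differently numbered ones at -0.22 to 0.22. Same-numbered samples also shared their sex pattern. With 3 arrays a group these correlations cannot decide whether the numbers pair the samples.

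Of the 17 members that the naming rule chose, 8 changed sign under some alternative, each at a value that passed no test. Members outside the rule, Psmb1 and Psmc4 among them, also changed sign without control replicate 3. With array weights Psmb9 was 0.042, Psmb10 -0.12, Psmd5 -0.21 and Psma8 0.0026. With the Gapdh ratio as a covariate Psmb10 was -0.15, Psma4 -0.012, Psmd5 -0.14 and Psma8 0.016. With the mean of probe sets Psmc2 was 0.016. Without both arrays with high ratios, chosen after seeing the data, Psmb6 was 0.025, Psmb9 0.065, Psmb10 -0.068 and Psmd5 -0.19. Leaving out single arrays gave -0.35 to 0.095 for Psmb5, -0.22 to 0.21 for Psmb6, -0.33 to 0.053 for Psmb9, -0.26 to 0.31 for Psmb10, -0.097 to 0.38 for Psma4, -0.069 to 0.031 for Psma8, -0.053 to 0.027 for Psmc2 and -0.28 to 0.29 for Psmd5. The cause was not tested. Psmd9 kept its direction in the 19 alternatives that gave it a single value, at -0.71 to -0.26. With every probe set as a row of its own, its probe sets were at -0.65, -0.14 and 0.018. With 3 arrays a group, differences inside the stated intervals could not be resolved.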
